A study of Mus musculus with 10 samples.

Results

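The guanylate-binding proteins (GBPs) Gbp2, Gbp3, Gbp4, Gbp5, Gbp6, Gbp7, Gbp8 and Gbp9 were followed in sorted mouse bone marrow cells with and without a blood-lineage deletion of Regnase-1, the RNA-degrading enzyme encoded by Zc3h12a. Members were found by gene symbol, which gave 8 of the 33393 genes with a value, and all 8 passed the filter on low values (5 or more of the 10 libraries at 1 TPM or above, TPM being a length-scaled share of a library's transcripts). Cells carrying the stem cell phenotype Lin- Sca-1+ c-Kit+ CD34- Flt3- were sorted from the femurs of individual C57BL/6 mice aged 8 weeks. Controls were Reg1flox/flox mice without a stated Cre, with 3 libraries in experiment 1 and 2 in experiment 2. The compared group, labelled Reg1KO, was Vav1-iCre; Reg1flox/flox, again with 3 and 2 libraries, so that both groups carried the same floxed allele. Vav1-iCre is active across blood cells from early in their development, so the deletion was not limited to the sorted stage.

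GBPs are large GTPases of the dynamin superfamily whose genes are switched on by interferon-gamma and, more weakly, by type I interferons. The proteins assemble on vacuoles and bacteria inside infected cells, damage them, and help to activate the inflammatory caspases. In blood-forming stem cells, chronic interferon signalling is known to drive cells out of quiescence. The mouse genes lie in 2 clusters. In GENCODE M21 annotation of GRCm38, the plus strand of chromosome 3 holds, in order, Gbp5 (chr3:142493978-142522344), Gbp7 (chr3:142530342-142550149), Gbp3 (chr3:142560026-142573209) and Gbp2 (chr3:142620602-142638008). The minus strand of chromosome 5 holds Gbp8 (chr5:105014150-105139540), Gbp9 (chr5:105077630-105139539), Gbp4 (chr5:105115767-105139586) and Gbp6 (chr5:105270702-105293698). Gbp4, Gbp8 and Gbp9 overlap on the same strand, and 8 of their transcripts (6 of Gbp4, 1 of Gbp8 and 1 of Gbp9) begin within 47 bases of each other.

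The RefSeq promoter windows of the chromosome 3 members (GRCm38.p6, plus strand) are shown. Each runs from 250 bases before to 50 bases after an annotated start. Of these 4 genes 3 rose, while the fourth, Gbp5, did not pass the test. No window was available for the chromosome 5 members, so Gbp4 and Gbp6, which also rose, could not be examined. Capitals mark 2 kinds of interferon element, searched on both strands: an ISRE core spelled GAAANNGAAA, here found as its reverse complement, and a GAS core spelled TTCNNNGAA, which is its own reverse complement. No match of one overlapped a match of the other.
Gbp2 (chr3:142620413-142620712): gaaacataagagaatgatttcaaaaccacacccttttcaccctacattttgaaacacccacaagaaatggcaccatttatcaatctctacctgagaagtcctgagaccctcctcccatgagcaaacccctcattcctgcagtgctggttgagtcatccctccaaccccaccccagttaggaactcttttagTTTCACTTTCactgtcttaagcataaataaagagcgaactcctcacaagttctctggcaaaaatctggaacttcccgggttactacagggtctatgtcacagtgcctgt
Gbp3 (chr3:142559794-142560093): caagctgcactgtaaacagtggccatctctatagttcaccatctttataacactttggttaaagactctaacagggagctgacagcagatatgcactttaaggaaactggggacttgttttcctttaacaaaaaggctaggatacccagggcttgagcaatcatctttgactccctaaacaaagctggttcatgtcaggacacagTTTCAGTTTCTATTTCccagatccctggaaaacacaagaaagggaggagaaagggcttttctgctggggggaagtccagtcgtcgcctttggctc
Gbp7 (chr3:142530086-142530385): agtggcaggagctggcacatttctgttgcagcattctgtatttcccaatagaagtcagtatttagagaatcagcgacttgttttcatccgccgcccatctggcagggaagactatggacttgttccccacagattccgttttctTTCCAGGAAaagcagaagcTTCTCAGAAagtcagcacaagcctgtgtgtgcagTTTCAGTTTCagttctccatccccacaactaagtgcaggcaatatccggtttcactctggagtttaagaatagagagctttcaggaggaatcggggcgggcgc
Gbp5 (chr3:142496684-142496983): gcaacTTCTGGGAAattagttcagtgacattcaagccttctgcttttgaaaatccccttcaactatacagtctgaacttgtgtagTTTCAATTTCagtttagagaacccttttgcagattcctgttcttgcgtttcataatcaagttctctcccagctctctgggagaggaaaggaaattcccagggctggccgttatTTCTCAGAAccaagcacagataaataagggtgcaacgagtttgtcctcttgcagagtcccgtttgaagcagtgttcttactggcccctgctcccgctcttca
All 4 windows shown held an ISRE core, against 3.44% of all 32851 promoter windows. Counted from the RefSeq start of each window, its first base lay 59 bases before in Gbp2, 53 before in Gbp7 and 165 before in Gbp5, and Gbp3 had a pair of overlapping cores at 45 and 39 bases before. GENCODE starts differ: that of Gbp2-201 lies 61 bases before the RefSeq start, so the Gbp2 core falls just inside this transcript, and the printed interval of Gbp5 also begins before its window. The GAS core was found in Gbp7 (106 and 87 bases before the start) and Gbp5 (245 and 52 before), against 8.30% of all windows, and not in the windows of Gbp2 and Gbp3. A second RefSeq window of Gbp3, whose start lay 55 bases before that of the transcript Gbp3-202, held neither. Gbp3-202 carried 48.1 to 79.1% of the gene's TPM in each group, and the start of the window shown lay 367 bases before it. The window of the related chromosome 3 gene Gbp2b held an ISRE core 137 bases before the start. Gbp2b did not exceed 0.440 TPM in any library. Both motif spellings were thus present in a member that rose (Gbp7) and in a member that was not called (Gbp5). A match describes the letters only.

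Before the members, the libraries themselves differed in ways that bear on every comparison. The files hold normalised values, so sequencing depth is unknown. The number of genes at 1 TPM or above was 13366 to 14307 in controls and 11256 to 12048 in libraries labelled Reg1KO. Protein-coding transcripts took 46.2 to 49.1% of the TPM in experiment 1 and 73.5 to 81.1% in experiment 2. Zc3h12a, the deleted gene, was listed at 1.28 to 6.07 TPM in controls and 2.08 to 10.3 TPM in libraries labelled Reg1KO, a rise of 0.83 ± 0.28 on the log2 scale (SE, limma adjusted p = 0.0314) that was not called without the TPM filter (limma adjusted p = 0.0897). Neither experiment alone called it (limma adjusted p = 0.0527 in experiment 1 and 0.265 in experiment 2). The rise goes against the label, although a value over whole transcripts does not show which exons were read. Of the 8 listed stem cell markers 7 fell, and Ly6a was not called. Their summed TPM was 336 to 864 in controls and 181 to 562 in the labelled Reg1KO libraries. In the latter Kit, which was among those that fell, was at 56.1 to 116 TPM. Hlf stood there at 0.791 to 2.72 TPM against 33.9 to 176 TPM in controls. Of the markers of other cells, those of the erythroid list were mixed, with 2 of 4 higher (Klf1 and Epor) and 1 lower. All 4 B cell markers fell, as did all 3 megakaryocyte markers, 2 of 4 neutrophil markers, both tested T and NK cell markers and 4 of 5 tested monocyte and macrophage markers, whose summed TPM ran from 478 to 994 in controls and from 49.0 to 194 in the labelled Reg1KO libraries. These counts stand beside 37.9% of all genes that fell. After quantile normalization 6 stem cell, 2 megakaryocyte and 3 neutrophil markers fell and 1 monocyte and macrophage marker rose, and after median-of-ratios scaling 3 monocyte and macrophage markers fell. Cd3e and Cd3g, which define T cells, were at 0 to 0.435 and 0 to 0.328 TPM in the labelled Reg1KO libraries. The whole T and NK cell list still summed to 54.4 to 163 TPM there, against 276 to 355 TPM in controls. Of the dendritic cell list, H2-Ab1 rose, and Itgax and Siglech stayed under 0.2 TPM in every labelled Reg1KO library. That list, which also holds Cd74, summed to 72.2 to 244 TPM in controls and 242 to 818 TPM in the labelled Reg1KO libraries. Whether the cell make-up differed, and any part of it in the results below, was not tested. In bulk RNA fewer cells of a type cannot be told apart from less RNA per cell.

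In controls Gbp2, Gbp7 and Gbp3 were the most abundant members. Gbp2 stood at 25.9 ± 9.63 TPM (SD, n = 5), Gbp7 at 23.7 ± 8.45 TPM and Gbp3 at 21.2 ± 6.42 TPM, and their ranges overlapped. Gbp6 followed at 11.1 ± 3.49 TPM, below Gbp3 in 5 of 5 control libraries. Gbp5, Gbp9, Gbp8 and Gbp4 lay between 5.34 and 6.61 TPM on average, and neighbours in that order overlapped. The experiments ordered the top 3 differently: Gbp7 led in every control of experiment 1 and Gbp2 in every control of experiment 2. In the libraries labelled Reg1KO, the order of means over both experiments was Gbp2 at 157 ± 76.7 TPM, Gbp3 at 121 ± 27.9 TPM, Gbp7 at 72.4 ± 28.7 TPM, Gbp6 at 61.8 ± 24.4 TPM, Gbp4 at 20.01 ± 13.3 TPM, then Gbp8, Gbp5 and Gbp9 at 10.1, 9.47 and 6.08 TPM. That order did not hold in each experiment. Gbp3 averaged 131 TPM and Gbp2 111 TPM in the labelled Reg1KO libraries of experiment 1, Gbp2 was above Gbp3 in 3 of the 5 labelled Reg1KO libraries, and in experiment 2 Gbp5 (17.7 TPM) was above Gbp4 (13.3 TPM) and Gbp8 (7.76 TPM). Gbp3 was above Gbp7, and Gbp6 above Gbp4, in 5 of 5 of these libraries.

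Of the 8 members, 5 rose in the libraries labelled Reg1KO (limma on log2(TPM + 1) with experiment as covariate, Benjamini-Hochberg adjusted p under 0.05 over 12874 genes), none fell (0 also at an unadjusted p under 0.05) and 3 were not called. Over all genes tested, 15.0% rose and 37.9% fell. The members' median log2 fold change was 1.55, and that of all tested genes was -0.25. TPM values are shares of a fixed total, so that centre depends on scaling. The median over all genes was 0.14 after quantile normalization and 0.05 after median-of-ratios scaling, and the numbers higher and lower went from 1933 and 4880 to 3861 and 2636 and to 3973 and 3425. The 5 members that rose did so under both scalings.

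**Figure D1:**
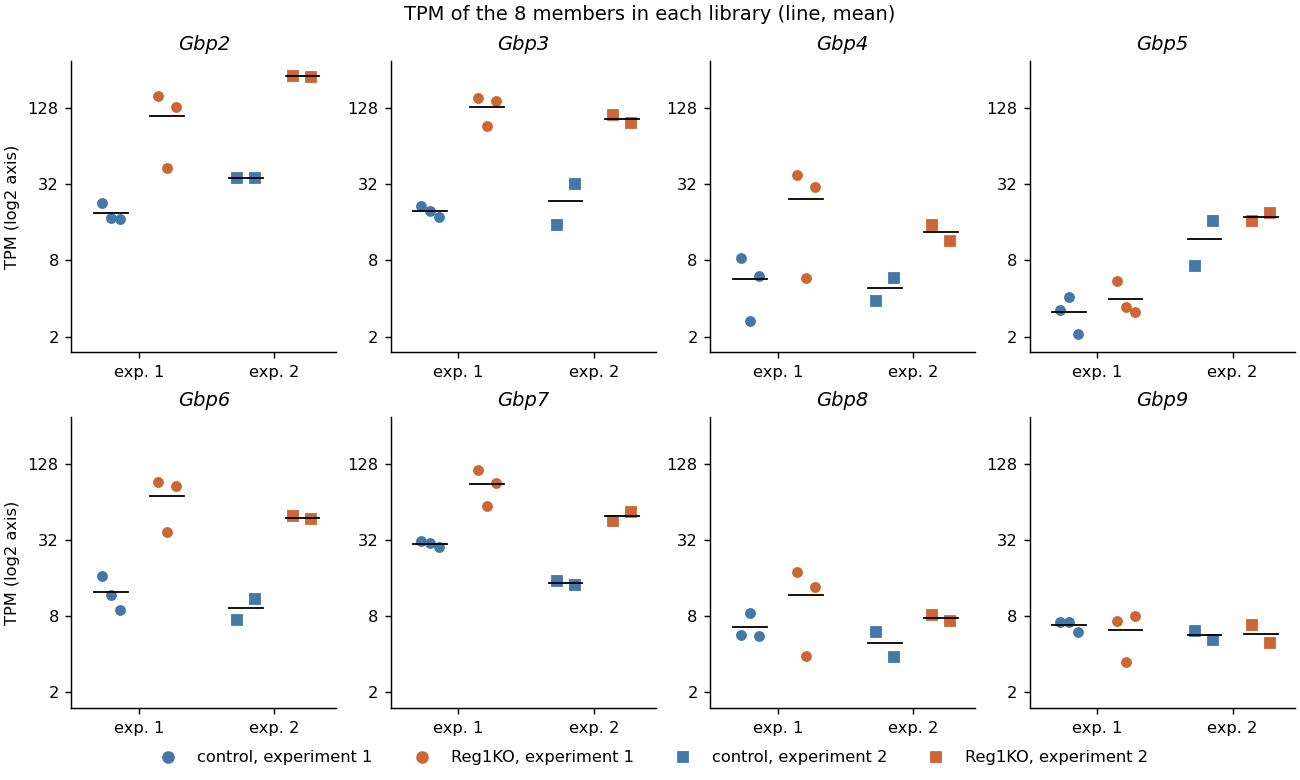
TPM of each member (log2 axis) in each of the 10 libraries, by experiment, with blue for control, orange for Reg1KO, circles for experiment 1, squares for experiment 2 and a line at each group's mean. Gbp2, Gbp3, Gbp6 and Gbp7 do not overlap between genotypes within either experiment, while 1 of the 3 Reg1KO circles lies low in nearly every panel.

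The chromosome 3 genes as a cluster help macrophages to activate caspase-11 against bacteria in the cytosol, and Gbp2 and Gbp3 had the largest fold changes among them. Gbp2 was at 22.9, 17.2 and 17.1 TPM in the controls of experiment 1 and at 36.1 TPM in both of experiment 2. The libraries labelled Reg1KO had 158, 42.9 and 131 TPM in experiment 1 and 229 and 226 TPM in experiment 2. Every labelled Reg1KO library was above every control, with the second replicate of experiment 1 far below the others. The log2 fold change was 2.42 ± 0.31 (SE), or 5.36-fold (95% confidence interval 3.30 to 8.71) on the TPM + 1 scale, with an adjusted p of 0.000154 by limma.

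Gbp3 was at 21.5, 19.5 and 17.7 TPM in the controls of experiment 1 and at 15.3 and 31.9 TPM in those of experiment 2. The labelled Reg1KO libraries had 155, 92.9 and 145 TPM, then 112 and 97.9 TPM. The lowest of these was still more than any control. Its log2 fold change was 2.47 ± 0.22 (limma adjusted p = 1.44e-05).

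Gbp7, which has been linked to assembly of the phagocyte oxidase, had a smaller fold change. Controls had 31.5, 30.0 and 27.9 TPM in experiment 1 and 15.1 and 14.1 TPM in experiment 2, against 114, 59.7 and 90.5 TPM and 44.8 and 53.4 TPM in the labelled Reg1KO libraries. Both genotypes stood lower in experiment 2, yet the groups did not overlap within either experiment or across them. The log2 fold change was 1.56 ± 0.17 (limma adjusted p = 4.36e-05).

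On chromosome 5, Gbp6 had 16.6, 11.8 and 8.86 TPM in the controls of experiment 1 and 7.46 and 10.9 TPM in those of experiment 2. Labelled Reg1KO libraries had 90.9, 37.1 and 84.9 TPM, then 49.1 and 46.8 TPM, with no overlap. Gbp6 rose by 2.33 ± 0.26 on the log2 scale, or 5.03-fold (95% confidence interval 3.35 to 7.55; limma adjusted p = 6.26e-05).

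Gbp4, known as a restraint on the interferon regulatory factor IRF7, was scarcer. It was at 8.32, 2.65, 6.03, 3.84 and 5.84 TPM in the 5 controls, the last 2 from experiment 2. Libraries labelled Reg1KO had 37.5, 5.79 and 30.1 TPM in experiment 1 and 15.2 and 11.4 TPM in experiment 2. The second replicate of experiment 1 lay inside the control range, so the groups overlapped. Gbp4 rose by 1.54 ± 0.46 on the log2 scale (limma adjusted p = 0.0190), a call lost at an adjusted p of 0.0659 when no gene was filtered out.

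Gbp5, Gbp8 and Gbp9 were not called. Gbp5, which promotes the NLRP3 inflammasome in macrophages, had 3.26, 4.11, 2.09, 7.19 and 16.4 TPM in controls and 5.48, 3.41, 3.10, 16.5 and 18.8 TPM in the labelled Reg1KO libraries, the last 2 of each from experiment 2. Its levels were higher in experiment 2 in both genotypes, and the genotypes overlapped in experiment 1. The log2 difference was 0.42 with a 95% confidence interval from -0.12 to 0.95 (limma adjusted p = 0.168). Quantile normalization gave 1.19 (limma adjusted p = 0.00375) and median-of-ratios scaling 0.71 (limma adjusted p = 0.0283).

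Gbp8 had 5.69, 8.44, 5.57, 6.01 and 3.83 TPM in controls and 17.8, 3.84, 13.5, 8.18 and 7.34 TPM in the labelled Reg1KO libraries. Of these, 1 library of experiment 1, at 3.84 TPM, was below its controls and the other 4 were above theirs. The log2 difference was 0.57 (95% confidence interval -0.18 to 1.31, limma adjusted p = 0.176). Without that 1 library it was 0.89 and passed the test (limma adjusted p = 0.00548), quantile normalization gave 1.27 (limma adjusted p = 0.00962), and median-of-ratios scaling gave 0.87, which was not called (limma adjusted p = 0.0529). Gbp9 had 7.14, 7.13, 5.97, 6.05 and 5.20 TPM in controls and 7.26, 3.46, 8.03, 6.74 and 4.90 TPM in the labelled Reg1KO libraries, with a log2 difference of -0.08 (95% confidence interval -0.52 to 0.36, limma adjusted p = 0.747). The sign of that difference turned under the scalings, to 0.68 after quantile normalization (limma adjusted p = 0.0133) and 0.22 after median-of-ratios scaling (limma adjusted p = 0.354).

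**Figure D2:**
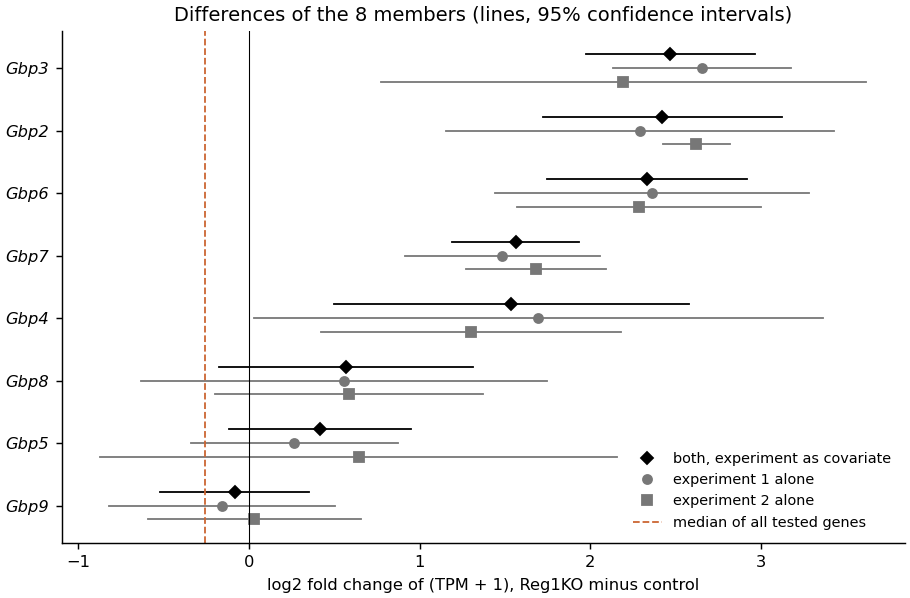
Log2 fold changes of TPM + 1 with 95% confidence intervals for each member, over both experiments (black diamonds) and in each alone (grey circles and squares). The 5 upper members lie right of 0 in both experiments, Gbp8 and Gbp5 have intervals that cross 0, and Gbp9 sits near 0, close to the dashed median of all genes at -0.25.

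Each experiment was also tested alone. In experiment 1 4 members were called higher (Gbp2, Gbp3, Gbp6 and Gbp7, limma adjusted p from 0.00022 to 0.00808), against 12.0% of all genes, and Gbp4 had an adjusted p of 0.0818. Experiment 2 alone, with 2 libraries a group, called 3 members higher (Gbp2, Gbp6 and Gbp7), against 3.51% of all genes, with adjusted p of 0.0734 for Gbp3 and 0.0777 for Gbp4 by limma. Linear folds of the mean TPM in experiments 1 and 2 were 5.80 and 6.29 for Gbp2, 6.69 and 4.46 for Gbp3, 5.72 and 5.21 for Gbp6, 2.95 and 3.37 for Gbp7, and 4.32 and 2.75 for Gbp4. The interaction of genotype and experiment was called for 0 of 8 members by limma (0 also at an unadjusted p under 0.05, lowest adjusted p = 0.723), against 0.443% of all genes. Its intervals were wide, as with Gbp4 from -2.65 to 1.86 on the log2 scale. Within both experiments, every labelled Reg1KO library exceeded every control for 4 members (Gbp2, Gbp3, Gbp6 and Gbp7), against 12.7% of the genes tested. An exact two-sided permutation test within experiments, with 120 assignments, gave p = 0.0167, the smallest possible, for these 4 members. For Gbp4 the exact permutation p was 0.050, for Gbp5 and Gbp8 0.20 and for Gbp9 0.833.

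Summed over the 8 members, controls held 117, 100.7 and 91.2 TPM in experiment 1 and 97.0 and 124 TPM in experiment 2. The labelled Reg1KO libraries held 585, 249.1 and 506 TPM, then 482 and 466 TPM, and none overlapped with a control. The 4 chromosome 3 members together went from 64.7 to 98.5 TPM in controls to 199 to 431 TPM. Those of chromosome 5 went from 23.4 to 37.7 TPM to 50.1 to 153 TPM. The make-up of the sum differed as well. Gbp2, Gbp3 and Gbp7 together made up 65.0 to 68.7% of it in controls and 72.4 to 80.8% in the labelled Reg1KO libraries. The share of Gbp7 alone was lower there in experiment 1, at 17.9 to 24.0% against 27.0 to 30.6% in controls. In experiment 2 it was 9.31 to 11.5% against 11.3 to 15.5% in controls, and the ranges overlapped. Gbp9 went from 4.18 to 7.08% to 1.05 to 1.59%. Gbp2 alone took 47.5 to 48.4% of the sum in the labelled Reg1KO libraries of experiment 2, against 29.1 to 37.2% in controls, and 17.2 to 27.0% in those of experiment 1, against 17.03 to 19.6% in controls.

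The files list 33 transcripts of the members, of which 16 passed the filter. Of these, 8 were called higher and 0 lower by limma (0 lower also at an unadjusted p under 0.05), against 6.40% of all 31937 transcripts called higher. Gbp2-201, the full-length protein-coding transcript (2516 bases), carried 91.4 to 100% of the gene's TPM in each group and rose by 2.45 ± 0.32 on the log2 scale (limma adjusted p = 0.000639). Both Gbp7 transcripts rose, by 1.49 ± 0.15 for Gbp7-201 and 1.59 ± 0.21 for Gbp7-202. The share of Gbp7-202 in its gene was 82.5% in controls and 80.7% in labelled Reg1KO libraries of experiment 1, against 43.7% and 50.7% in experiment 2. It thus differed more between experiments than between genotypes.

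Gbp3 was carried by Gbp3-202 (2682 bases), at 6.26 to 19.3 TPM in controls and 51.6 to 84.4 TPM in the labelled Reg1KO libraries, and by the 477-base fragment Gbp3-205, at 0.000263 to 12.6 TPM and 12.4 to 76.8 TPM. Both were called higher, but Gbp3-205 overlapped between genotypes. Counting only transcripts of at least 1000 bases left the log2 fold change of Gbp3 at 2.43. Of Gbp6, the coding Gbp6-201, the nonsense-mediated decay transcript Gbp6-203 and the retained-intron Gbp6-202 all rose, by 2.34, 2.07 and 0.74 on the log2 scale.

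Gbp4 differed from the others in what it was made of. Its full-length coding transcript Gbp4-201 (4538 bases) was listed at 0 to 0.134 TPM in controls and 0.000357 to 2.24 TPM in the labelled Reg1KO libraries and did not pass the filter. Most of the gene's value came from Gbp4-202, annotated as a target of nonsense-mediated decay, with 66.1 and 36.5% of the TPM in controls and 48.2 and 56.1% in the labelled Reg1KO libraries of experiments 1 and 2, and from the 709-base Gbp4-203. Neither was called alone, with log2 differences of 1.34 (limma adjusted p = 0.0518) and 1.56 (limma adjusted p = 0.121). Of the other transcripts that begin in the same 47 bases, Gbp8-201 differed by 1.12 (limma adjusted p = 0.124) and Gbp9-202 by -0.08 (limma adjusted p = 0.837). The remaining tested transcripts not called were Gbp2-202, Gbp3-203, Gbp5-201 and Gbp8-204, with log2 differences of 0.73, 0.88, 0.27 and -0.13.

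**Figure D3:**
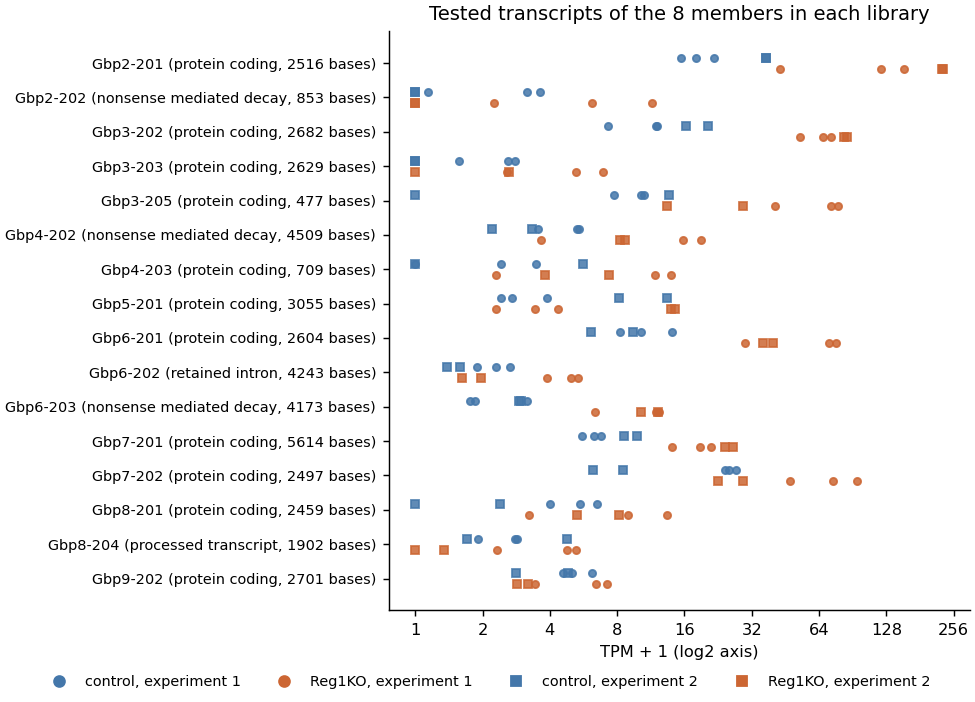
TPM + 1 (log2 axis) of the 16 tested member transcripts in each library, with blue for control, orange for Reg1KO, circles for experiment 1 and squares for experiment 2. Gbp2-201, Gbp3-202, Gbp6-201 and Gbp7-201 do not overlap between genotypes, whereas Gbp5-201 follows the experiment and Gbp9-202 overlaps throughout.

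Near-identical copies limit 1 of these genes. Only 25.7% of the 31-base words in Gbp6 transcripts are found in no other gene, 51.4% are shared with Gbp10, and 67.8% with Gm43302, a locus spanning both that was not analysed here. The level of Gbp6 is thus uncertain as to its source. Gbp10 itself was at 4.30, 1.29, 3.64, 0.170 and 0.365 TPM in controls and 11.3, 4.28, 8.01, 0.468 and 0.169 TPM in the labelled Reg1KO libraries, with a log2 difference of 0.70 (limma adjusted p = 0.0982) that passed the test after quantile normalization (1.39, limma adjusted p = 0.0128) and after median-of-ratios scaling (0.91, limma adjusted p = 0.0440). With Gbp6 and Gbp10 added, an alternative chosen after the values were seen, the log2 fold change was 2.23 (limma adjusted p = 7.5e-05). For the other members 68.9% (Gbp8) to 96.9% (Gbp5) of the words were unique. The remaining family genes, Gbp2b and Gbp11, did not exceed 0.440 and 0.711 TPM in any library and were not tested.

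Genes around the GBPs in the interferon response were described by role, from lists chosen with earlier results of these data known. Leaving aside the related immunity-related GTPases, 63 of 80 listed genes were tested, 6 rose and 29 fell, beside 15.0% and 37.9% of all genes. After quantile normalization 20 rose and 21 fell, and after median-of-ratios scaling 21 rose and 17 fell, so the counts by role are given under each scaling where they differ. Of the ligands, Ifng was at 0 to 0.118 TPM in controls and 0 to 0.144 TPM in the labelled Reg1KO libraries, and Ifnb1 did not exceed 0.0344 TPM. Il12a and Il18, cytokines that drive interferon-gamma production in lymphocytes, both fell, Il18 by 3.03 on the log2 scale (limma adjusted p = 1.39e-06). Among receptors, 5 of 8 tested fell and 0 rose by limma, with 1, Ifngr1, higher at an unadjusted p under 0.05 and called after median-of-ratios scaling. They included Ifngr2, the signalling chain of the interferon-gamma receptor, at 10.7 to 29.1 TPM in controls and 3.89 to 15.3 TPM in the labelled Reg1KO libraries (log2 fold change -1.24 ± 0.17, limma adjusted p = 0.00021). The largest fall was that of Il18r1 (-1.90). Ifngr1, the ligand-binding chain, differed by 0.35 (limma adjusted p = 0.0758), or by 0.70 after that scaling.

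Irf1, which binds the ISRE, was at 57.1 to 79.0 TPM in controls and 62.5 to 127 TPM in the labelled Reg1KO libraries, a log2 difference of 0.44 that was not called (limma adjusted p = 0.0592) but passed the test after both scalings and, at 0.61, without the second labelled Reg1KO replicate of experiment 1 (limma adjusted p = 0.00306). Irf8 fell by 2.08. Of 14 tested genes in the signalling and transcription factor group 3 rose and 4 fell, against 8 and 3 after quantile normalization and 7 and 2 after median-of-ratios scaling. Socs1, an inhibitor of JAK signalling that interferon-gamma induces, differed by 0.02 (limma adjusted p = 0.953). Of the 9 tested negative regulators 1, Usp18, rose (by 1.14), and of the 4 that fell Cish fell most (by 2.06). The numbers that rose and fell were 3 and 2 after quantile normalization and 3 and 3 after median-of-ratios scaling.

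Of 7 tested partners of GBPs in the inflammasome and oxidase, 0 rose (0 also at an unadjusted p under 0.05) and 4 fell by limma. Casp4, which encodes caspase-11, was at 14.5 to 37.6 TPM in controls and 6.39 to 16.9 TPM in the labelled Reg1KO libraries (log2 fold change -0.93 ± 0.16, limma adjusted p = 0.00078), and Cybb, the oxidase subunit, fell by 3.26. Under both scalings 3 of the 7 fell and 0 rose. The autophagy list, only some of whose genes guide GBPs to vacuoles, had 8 lower and 1 higher of 12 tested. Map1lc3a fell by 1.39, and Ube2l6, itself interferon-induced, rose by 1.198, while 6 fell and 2 rose after quantile normalization and 2 fell and 3 rose after median-of-ratios scaling. Of 8 genes for the lipid anchor that some GBPs carry, Fdps rose by 0.63 and Ggps1 fell by 0.49, the latter not called after either scaling, under which 5 rose and 0 fell by limma. Among the 3 atlastins, the nearest relatives of GBPs in the dynamin superfamily, Atl1 fell by 0.59, which was not called after either scaling and turned to 0.30 after quantile normalization. The other 2 rose after both scalings. The immunity-related GTPases, which load onto the same vacuoles, all rose among the 6 tested, from 1.86 on the log2 scale for Irgm2 to 4.098 for Iigp1.

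**Figure D4:**
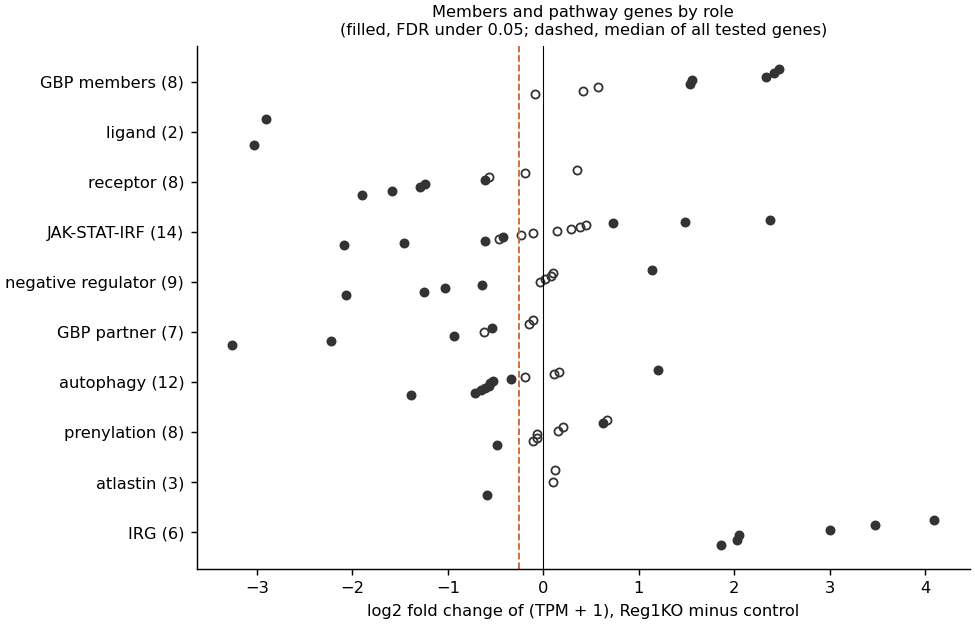
Log2 fold changes of TPM + 1 for the members and for the tested genes of each role list, with the number tested in brackets, filled where the adjusted p was under 0.05. The GBPs and immunity-related GTPases lie right of 0 except for Gbp9, whereas the ligands, most receptors and the GBP partners lie left of it.

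Members also varied together across libraries. With each experiment's mean removed, Pearson's r over the 10 libraries was 0.950 to 0.989 between Gbp2, Gbp3, Gbp6 and Gbp7. It was 0.690 between Gbp8 and Gbp9, and between Gbp9 and Gbp5 it was 0.00856. The points share the genotype contrast, so r is a description. Outside the family the 5 genes most like the members' mean by this measure were Samhd1 (r = 0.985), an enzyme that degrades nucleotides, Irgm2 (0.976), Tapbpl (0.970), a peptide editor of MHC class I, Psme1 (0.970), a proteasome activator, and Psmb8 (0.968), a subunit of the immunoproteasome. They were chosen for following the members' mean, genotype contrast included. Their rise, by 0.62 to 1.86 on the log2 scale, is therefore no separate result.

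The library that stood apart was the second replicate labelled Reg1KO of experiment 1. For the 8 members its TPM was 0.171 (Gbp4) to 0.795 (Gbp5) of the mean of the other 2 replicates, and under 0.5 for 5 of them. Across 12850 genes the median of this ratio was 0.973, and it was under 0.5 for 4.90%. H2-Ab1 had a ratio of 0.342 and Ly6a, which encodes the Sca-1 used in the sort, of 0.124. Without this library 6 members were called higher instead of 5, with Gbp8 added, and the log2 fold changes were 2.75 for Gbp2, 2.57 for Gbp3, 2.55 for Gbp6, 1.71 for Gbp7 and 1.94 for Gbp4. Gbp9 then differed by 0.10 (limma adjusted p = 0.533). What set this library apart was not tested.

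**Figure D5:**
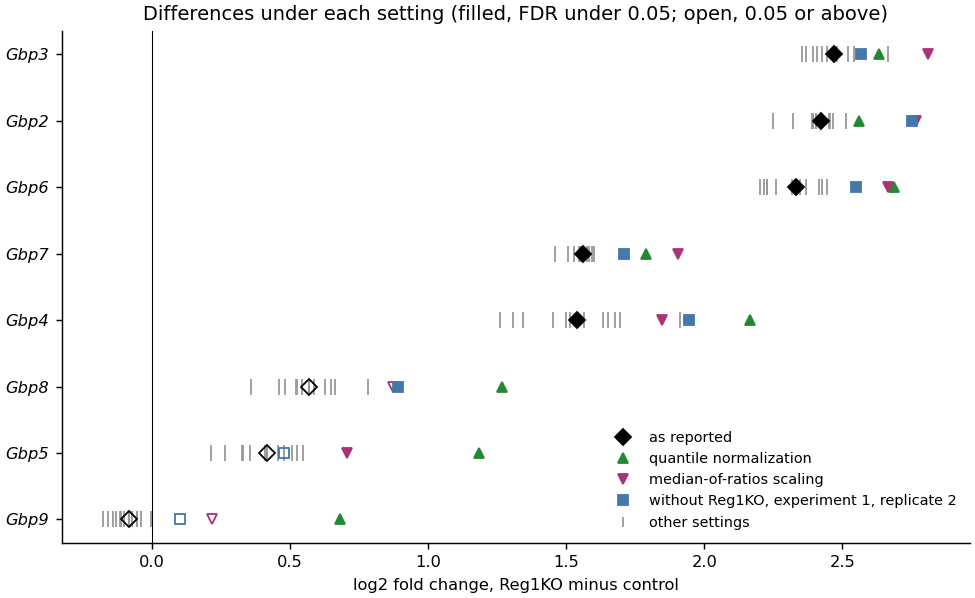
Log2 fold changes of each member as reported (diamonds), after 2 other scalings, without the second Reg1KO replicate of experiment 1, and under the other settings (grey ticks). Gbp2, Gbp3, Gbp6, Gbp7 and Gbp4 stay above 1.2 everywhere, while Gbp8, Gbp5 and Gbp9 move across the threshold with the scaling or the library left out.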

How the data were processed

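Total RNA of sorted bone marrow cells from individual mice (10 libraries) was sequenced after cDNA amplification from low input. Per the labels and the methods, the authors quantified transcripts with Salmon 0.9.1 against mouse mm10 annotation. The methods name an earlier GENCODE release than the M21 used here for names and positions. The authors deposited log2(TPM + 1) per transcript, and no counts were used here. Values were turned back to TPM, summed per gene, and tested as log2(TPM + 1) with limma 3.58.1 in R 4.3.3, with experiment as covariate, in genes that reached 1 TPM in 5 or more of the 10 libraries. The pseudocount of 1 understates changes of low genes. Depth is unknown, so no counting error is given. The limma script was tested on simulated data.

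Members and lists were chosen with earlier results of these data known. All 8 members, other Gbp genes, key pathway genes, the largest rise and fall of each role list, and the 5 most similar genes were named. Experiment was read from the sample titles. One file's header repeats another replicate's name, and its sample was taken from the series record. Replicate numbers correlated by 0.033, 0.175 and 0.068 in experiment 1 and by -0.054 in experiment 2, so they were not used as pairs. Ligand genes without a row were not analysed here, and 1 pathway gene is not reported here. Positions are from GENCODE M21 and promoter sequences from RefSeq, which matched 4 of the 8 members.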

Additional observations from a re-analysis of the deposited data

How the results depend on the processing

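The 5 members called higher stayed above 0 in all 21 settings, and Gbp2, Gbp3, Gbp6 and Gbp7 passed the test in each of them. Gbp4 passed in 20, with adjusted p from 0.00158 to 0.0659 by limma. The count of members was 8 after quantile normalization and 4 to 6 in the other settings, and 5 to 6 when 1 library was left out. Genes called higher numbered 1933 of 12874 as reported and 1791 of 33393 without a filter. They numbered 3861 after quantile normalization and 3973 after median-of-ratios scaling. In experiment 2 alone the reported member count was 3, beside 452 of 12874 genes called higher. It was 1 without a filter (180 of 33393 genes) and 5 with TPM of at least 1 in every library (481 of 9412). It was also 5 after quantile normalization (1012 genes) and median-of-ratios scaling (1562 genes). The count was again 5 with protein-coding transcripts only (733 of 11078) and with transcripts of at least 1000 bases (777 of 10248). It was 0 when any library of experiment 2 was left out, a fit in which the lone library of an arm was assumed to vary like the others and 0 of all genes were called by limma. Without the experiment covariate 3768 genes in all, 5 member transcripts and 22 pathway genes were called instead of 6813, 8 and 35. The replicate block left 5 members, 8 member transcripts and 33 pathway genes called, and changed no member's call. Replicate numbers did not pair the samples, and 2 of 3 labelled Reg1KO libraries of experiment 1 correlated best with the control of their number. Signs turned for Gbp9 (0.68 after quantile normalization, 0.22 after median-of-ratios scaling, and from -0.18 to 0.10 with 1 library left out, the highest without the second Reg1KO replicate of experiment 1), for Atl1 (0.30 after quantile normalization) and for Socs1, from -0.10 to 0.21 with 1 library left out. The cause of these changes was not tested. The planned sum over family genes by protein identity was not run. Read depth is unknown, so counting error in the scarcer members could not be given.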
